A study of Mus musculus with 3 samples.

Results

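Among the GABAergic nuclei of the mouse basolateral amygdala (BLA), a small set carried both *Reln* and *Egfr*, and it is described here as the Reln Egfr nuclei. They numbered 57 of 1646 GABAergic nuclei in 2 single-nuclei RNA sequencing (snRNAseq) libraries, 23 of 605 in replicate 2 and 34 of 1041 in replicate 3. In snRNAseq a barcode marks all RNA captured with a given nucleus, and a unique molecular identifier (UMI) marks each captured molecule, which lets amplified copies be counted once. A barcode was taken as GABAergic when it held at least 1 UMI of *Gad1* or *Gad2*, which encode the enzymes that make GABA. It also had to hold 0 UMIs of *Slc17a7* and *Slc17a6*, the vesicular glutamate transporters, and under 0.1% of its UMIs in *Slc1a2* and *Slc1a3*, the astrocytic glutamate transporters. From these nuclei, the Reln Egfr set was chosen by the UMIs of 6 genes: each nucleus had at least 1 UMI of *Reln* and of *Egfr*, fewer than 3 of *Foxp2*, fewer than 4 of *Cnr1*, and 0 of *Sst* and *Vip*.

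Neurogliaform cells are GABAergic interneurons with short, densely branched processes. They release GABA into the space around their axons rather than only at single synapses, which gives slow inhibition through GABA-A and GABA-B receptors. In cortex and hippocampus they are known for *Reln*, *Ndnf*, *Lamp5*, *Npy* and *Nos1*, and many of them arise in the caudal ganglionic eminence. *Reln* encodes reelin, a secreted glycoprotein that binds the receptors Vldlr and Lrp8 and acts through the adaptor Dab1. *Egfr* encodes the epidermal growth factor receptor, a receptor tyrosine kinase of the ErbB family.

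The nuclei came from BLA dissected from both hemispheres of wild-type male C57BL/6NRj mice at postnatal day 56, with 4 brains pooled per dataset, and there was no treatment or second condition. Whether the libraries hold different pools of brains is not stated. The p-values therefore measure how far the difference between classes varied from library to library, pooled in large part over all genes, a spread that may be technical. The UMI counts were used as deposited. Of 9199 barcodes in 3 libraries, replicates 2 and 3 held 8284 that had more than 200 genes and under 20% mitochondrial UMIs.

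The rule kept the nuclei step by step. In replicate 2, 605 GABAergic nuclei gave 109 with *Reln*, 33 with *Egfr* as well, 30 under the limit of *Foxp2*, 28 without *Sst*, 24 without *Vip* and 23 under the limit of *Cnr1*. In replicate 3, the same steps ran from 1041 to 187, 45, 41, 39, 34 and 34. The share of GABAergic nuclei was 3.8% in replicate 2 (exact 95% confidence interval 2.42 to 5.65) and 3.27% in replicate 3 (2.27 to 4.53), a mean of 3.53% ± 0.379 (SD, n = 2). *Reln* and *Egfr* overlapped unevenly. *Egfr* was found in 30.3% of the GABAergic nuclei with *Reln* and 11.5% of those without it in replicate 2, and in 24.1% and 8.55% in replicate 3. These shares describe what the rule used, and no test was made on them. Intervals here cover counting error only.

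The nuclei ranged from the edge of the limits to well inside them. The median was 5 *Reln* UMIs in both libraries, with a highest value of 24 in replicate 2 and 74 in replicate 3. For *Egfr* the median was 3 (highest 17) in replicate 2 and 5.5 (highest 26) in replicate 3. Both genes had at least 2 UMIs in 11 of 23 and 26 of 34 nuclei and at least 5 in 5 and 18, so that 12 and 8 nuclei rested on a single UMI of either gene. Just inside, 4 and 5 nuclei had a single *Reln* UMI and 9 and 6 a single *Egfr* UMI. Just outside, 35 and 41 nuclei failed for want of *Reln* alone and 40 and 55 for want of *Egfr* alone. *Foxp2* alone removed 2 and 3 nuclei, *Sst* alone 2 and 2, *Vip* alone 3 and 4, and *Cnr1* alone 1 and 0.

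Replicate 1, a smaller library that the rule did not use, held 19 GABAergic nuclei by the same limits, and 1 of them had both genes. The median depth of the 19 was 6082 UMIs, against 5905 and 6222 in the GABAergic nuclei of replicates 2 and 3. The share with both genes was 5.26% (exact 95% interval 0.133 to 26.0). That interval held the shares of replicates 2 and 3, so 19 nuclei were too few to tell the libraries apart. The nucleus with both genes had 3692 UMIs, with 1 UMI each of *Reln*, *Egfr* and *Npy*, 2 of *Grik1* and *Sox6*, 3 of *Meis2* and 0 of *Ndnf*, *Lamp5*, *Kit*, *Il1rap*, *Hapln1*, *Nos1* and *Adarb2*. In replicate 1 84.9% of barcodes held a UMI of a vesicular glutamate transporter, against 27.1% and 18.2% in replicates 2 and 3.

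The nuclei had a median of 8051 UMIs in replicate 2 and 6279 in replicate 3, with a range of 1665 to 18308 and 1013 to 21177. Asking for a UMI of each of *Reln* and *Egfr* favours deep nuclei, so each nucleus was set beside the 3 other GABAergic nuclei of its library nearest to it in depth. These 69 and 102 matched others had medians of 8016 and 6284 UMIs. Since the rule removed *Foxp2* nuclei from 1 side only, 25 of 69 and 56 of 102 matched others had 3 or more *Foxp2* UMIs. A further set of 69 and 102 others that met the same limits on *Foxp2*, *Sst*, *Vip* and *Cnr1* was therefore used beside it. Nuclei rich in myelin genes, here called oligodendrocyte nuclei (78 and 83, median 2850 and 1917 UMIs), served as a measure of free RNA in droplets. Replicates 2 and 3 shared 7 barcode sequences, none of them in the Reln Egfr set. The doublet caller Scrublet set a threshold that called 1 of 3792 barcodes in replicate 2, so doublets were taken by the rank of its score (115 and 168 barcodes). None of the Reln Egfr nuclei was among these.

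The name neurogliaform-like was checked against *Npy*, *Kit*, *Hapln1* and *Nos1*, 4 markers that were used neither by the rule nor to describe the set, though they too were chosen with earlier results known. They are only a part of a list of 18 such genes, given below. Others of that list, such as *Id2*, *Cplx3* and *Car4*, were in few of the Reln Egfr nuclei and were not counted here. At least 1 of the 4 markers was found in 14 of 23 Reln Egfr nuclei in replicate 2 (60.9%) and 29 of 34 in replicate 3 (85.3%), against 16 of 69 (23.2%) and 24 of 102 (23.5%) of the matched others. At least 2 were found in 4 of 23 (17.4%) and 21 of 34 (61.8%), against 3 of the matched others in each library (4.35% and 2.94%). None of the 4 was found in 9 of 23 and 5 of 34 Reln Egfr nuclei. In replicate 2, 7 nuclei held *Kit* and 7 held *Nos1*, and none of those with *Nos1* held *Kit* or *Npy*. In replicate 3, 12 of the 14 nuclei with *Nos1* held *Kit*. Where both *Reln* and *Egfr* had 2 or more UMIs, 9 of 11 and 24 of 26 nuclei held at least 1 marker, while 5 of 12 and 5 of 8 did where either gene had a single UMI. The latter nuclei were also shallower, with medians of 6192 and 4062 UMIs against 13062 and 7287.

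The same 4 markers were counted in other classes. At least 1 was held by 12 of 35 and 22 of 41 nuclei with *Egfr* but no *Reln* that passed the other limits, and by 11 of 40 and 10 of 55 with *Reln* but no *Egfr*. The count was 6 of 10 and 8 of 22 in *Cnr1*-rich nuclei (4 or more *Cnr1* UMIs), 15 of 40 and 38 of 78 in *Sst* nuclei and 3 of 78 and 4 of 83 in oligodendrocyte nuclei. With *Ndnf*, *Lamp5* and *Il1rap*, by which the set had been described, counted as well, at least 2 of 7 markers were found in 13 of 23 and 26 of 34 Reln Egfr nuclei, against 7 of 69 and 10 of 102 matched others.

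**Figure D1:**
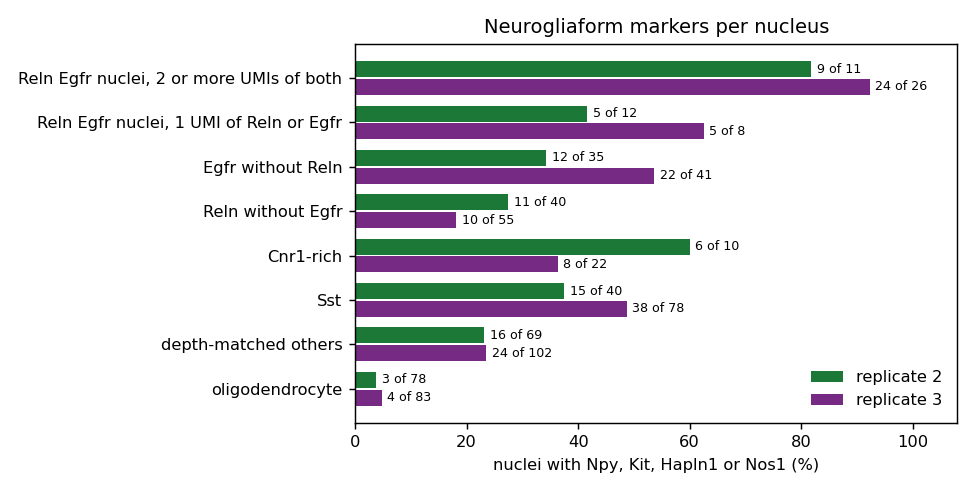
Percentage of nuclei with 1 or more of the 4 markers *Npy*, *Kit*, *Hapln1* and *Nos1* (horizontal axis) in the Reln Egfr nuclei, divided by UMIs of *Reln* and *Egfr*, and in other nuclei, with counts of nuclei beside each bar. The bars of nuclei with 2 or more UMIs of both genes reach 81.8% in replicate 2 and 92.3% in replicate 3, and those of the matched others reach 23.2% and 23.5%. The others were matched in depth to the whole set (medians 8016 and 6284 UMIs), and the nuclei with 2 or more UMIs of both genes were deeper (13062 and 7287).

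*Ndnf*, a secreted neurotrophic factor that marks superficial and neurogliaform interneurons of cortex (ENSMUSG00000049001, chr6:65671590-65712326, GRCm38), was found in a minority of the set and in none of the matched others. It was in 6 of 23 and 12 of 34 Reln Egfr nuclei (26.1% and 35.3%), with 21 and 42 UMIs, and in 0 of 69 and 0 of 102 matched others. Against a floor of 3 counts per library in these matched others, the summed level was at least 21.0-fold higher in replicate 2 and at least 42.0-fold higher in replicate 3. These bounds hold for the matched others only. Against all other GABAergic nuclei, some of which held *Ndnf*, the log2 fold change was 4.35 ± 0.38. Of the others that met the same exclusions, 0 of 69 and 2 of 102 held it, and none of the oligodendrocyte nuclei did. *Ndnf*, *Lamp5* and *Il1rap* were named as markers of these nuclei with earlier results known, so that their values describe the set and add no support to its name.

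*Kit*, the receptor tyrosine kinase for stem cell factor (ENSMUSG00000005672, chr5:75574916-75656722), was in 30.4% of the Reln Egfr nuclei of replicate 2 (95% interval 13.2 to 52.9) and 76.5% of those of replicate 3 (58.8 to 89.3). The matched others had it in 2.90% and 9.80%. Levels of summed counts were 174 and 421 counts per 1e+06 UMIs (CPM), against 5.12 and 25.1, a log2 fold change of 4.29 ± 0.31 (SE; edgeR adjusted p = 0.000103). Both libraries showed the excess, but the 2 libraries differed in the share of Reln Egfr nuclei with *Kit* beyond their counting intervals.

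*Hcrtr2*, the receptor for the arousal peptides orexin A and B (ENSMUSG00000032360, chr9:76225880-76323856), was in 43.5% and 64.7% of the Reln Egfr nuclei and in 7.25% and 10.8% of the matched others. Its level was 215 and 507 CPM against 13.7 and 33.8, a log2 fold change of 3.92 ± 0.26 (edgeR adjusted p = 9.52e-05). Oligodendrocyte nuclei had it in 2.56% and 0%. For both genes, each library of the set lay above each library of the matched others, and both passed under every alternative that was run.

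**Figure D2:**
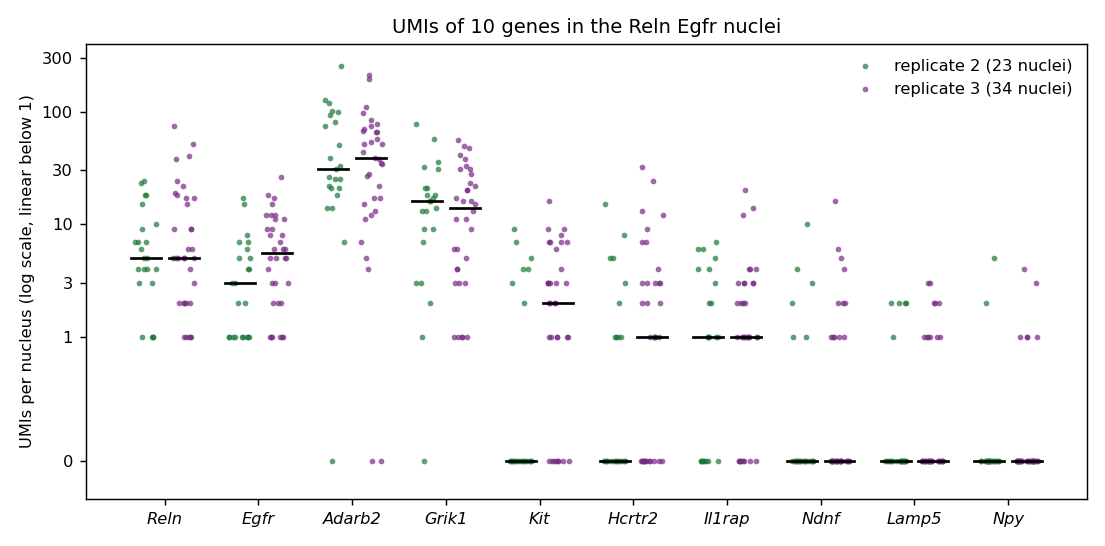
UMIs per nucleus (vertical axis, logarithmic above 1) of 10 genes in the Reln Egfr nuclei, 23 of replicate 2 and 34 of replicate 3. Each point is a nucleus and each bar a median, and the medians of *Reln* lie at 5 in both libraries while those of *Ndnf*, *Lamp5* and *Npy* lie at 0.

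*Lamp5*, a lysosomal membrane protein of GABAergic nerve endings, was in 21.7% and 32.4% of the Reln Egfr nuclei and 11.6% and 6.86% of the matched others (log2 fold change 1.79 ± 0.44, edgeR adjusted p = 0.0400). The call was lost, at a log2 fold change of 1.79 again, when the nuclei with the highest Scrublet scores were left out of the others (edgeR adjusted p = 0.101). That setting removed 3 and 20 GABAergic nuclei and none of the Reln Egfr nuclei, and the prior degrees of freedom of the fit, which pool the spread over genes, went from 8.90 to 4.43. It took the call from 26 of the genes named or listed here, whose log2 fold changes moved by a median of 0.0071 and at most 0.17. *Hapln1*, a link protein of the extracellular matrix, rose by 3.65 ± 0.51 on the log2 scale (edgeR adjusted p = 0.00207), with 17.4% and 38.2% of nuclei against 1.45% and 3.92%. *Nos1*, the neuronal nitric oxide synthase, was in 30.4% and 41.2% against 17.4% and 9.80% (2.07 ± 0.35, edgeR adjusted p = 0.00674). *Il1rap*, the shared receptor chain of interleukin-1 signalling, whose neuronal form also organises synapses, was in 65.2% and 76.5% against 23.2% and 21.6% (2.33 ± 0.25, edgeR adjusted p = 0.000488). It was also in 73.1% and 53.0% of the shallower oligodendrocyte nuclei, so that its presence alone did not single out the set. The neuropeptide gene *Npy* had 8.70% and 17.6% against 5.80% and 3.92% and missed the threshold (1.94 ± 0.54, edgeR adjusted p = 0.0644).

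Of the 18 genes in the list of neurogliaform and *Lamp5*-type markers, 11 had enough counts to be tested against the matched others. Of these 6 were higher and none lower, with a median log2 fold change of 1.94 and of -0.01 over all 5498 genes tested. *Ndnf*, *Lamp5* and *Il1rap*, by which the set had been described, were among the 6 and add no support to its name. Of all genes tested 2.82% were called higher. The others of the list that were tested, *Npy*, *Sv2c*, *Tnfaip8l3*, *Pax6* and *Plch2*, did not pass. *Id2*, a factor of many neurogliaform cells, was in only 4.35% and 8.82% of the nuclei. *Car4* was in 4.35% and 5.88% of them, against 5.80% and 2.94% of the matched others. *Cplx3*, a complexin of some *Lamp5* cells, was in 4.35% and 0%, and *Lsp1* and *Egln3* were at 0 in both libraries, which at 23 and 34 nuclei allows shares up to 13.0% and 8.82%. Among others that met the same exclusions, 10 were tested and 9 were higher (median 2.19), again with *Ndnf*, *Lamp5* and *Il1rap* among them. Of all genes tested there, 4.12% were called higher. *Sv2c*, a synaptic vesicle protein, rose in that comparison (1.5 ± 0.27, edgeR adjusted p = 1.43e-05), with 0.52 ± 0.32 (edgeR adjusted p = 0.483) against all matched others.

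**Figure D3:**
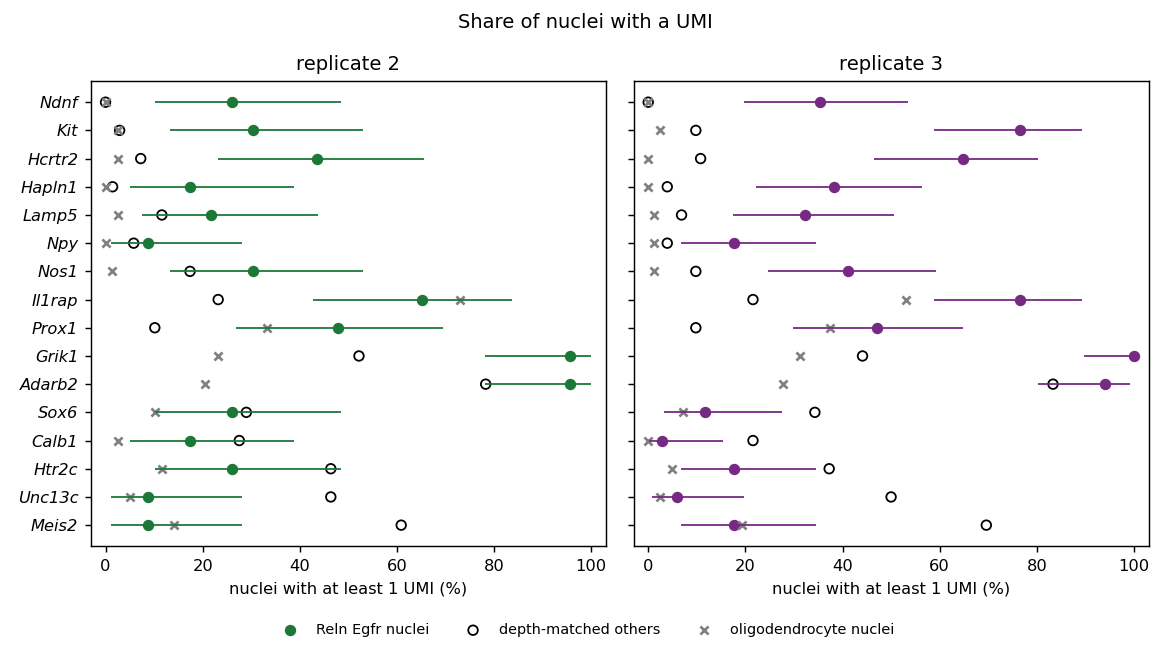
Percentage of nuclei with at least 1 UMI of 16 genes in replicates 2 and 3 (filled circles, Reln Egfr nuclei with exact 95% intervals; open circles, depth-matched others; crosses, oligodendrocyte nuclei). *Ndnf*, *Kit*, *Hcrtr2* and *Grik1* lie to the right of the matched others in both libraries and *Meis2* and *Unc13c* to the left.

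*Kit* and *Il1rap* met *Ndnf* in the same nuclei. *Kit* was in 5 of the 6 and 12 of the 12 nuclei with *Ndnf*, against 2 of 17 and 14 of 22 of those without it. *Il1rap* was in 5 of 6 and 12 of 12, against 10 of 17 and 14 of 22. Median depth was 5809 and 7287 UMIs in nuclei with *Ndnf*, against 8104 and 5515 without it, so that the nuclei with *Ndnf* were the shallower ones in replicate 2 and the deeper ones in replicate 3. *Nos1* and *Kit* behaved differently in the libraries. No nucleus out of 7 with *Nos1* held *Kit* in replicate 2, and 12 of 14 did in replicate 3. *Nos1* was in 0 of the 6 nuclei with *Ndnf* and 0 of the 5 with *Lamp5* in replicate 2. In replicate 3 it was in 4 of 12 and 8 of 11. These counts are descriptions, without a test.

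A few nuclei were rich in *Sox6*. In 3 nuclei of replicate 2 and 2 of replicate 3, *Sox6*, a factor of interneurons from the medial ganglionic eminence, had 10 or more UMIs, a limit chosen after its values were seen. None of the 5 held *Kit*, *Ndnf* or *Lamp5*, while *Il1rap* was in 2 of 3 and 0 of 2 and *Npy* in 0 of 3 and 1 of 2. They carried 48 of the 54 and 27 of the 31 *Sox6* UMIs of the set. In these nuclei *Lhx6*, the eminence's defining factor, was found in 1 of 3 and 2 of 2. The remaining 20 and 32 nuclei held *Lhx6* in 2 and 1 cases. The *Sox6*-rich nuclei had a median depth of 14579 and 13095 UMIs, against 7663 and 5838 in the remaining nuclei. *Grik3*, a kainate receptor subunit, was in 3 of the 3 in replicate 2 and in 4 of the other 20.

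The libraries also differed in other genes of the set. *Htr2a*, a serotonin receptor, was in 17.4% (95% interval 4.95 to 38.8) and 61.8% (43.6 to 77.8) of nuclei. *Grik3* was in 30.4% (13.2 to 52.9) and 0%, and *Npas3*, a transcription factor, in 82.6% (61.2 to 95) and 44.1% (27.2 to 62.1). With 1 library on each side, these differences had no replicate check.

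Across all genes, 155 were higher and 200 lower in the Reln Egfr nuclei than in the depth-matched others, at an adjusted p under 0.05 in edgeR's quasi-likelihood test on counts summed per library. These were 2.82% and 3.64% of 5498 genes, 6.46% in either direction, and 974 genes had an unadjusted p under 0.05. All called genes had the same sign in both libraries, though calls made on these same 2 libraries favour such genes. With 2 libraries the fit had 1 residual degree of freedom, against 8.90 prior degrees of freedom drawn from all genes together. The fit against others that met the same exclusions had 1 and 70.8. Its smaller p-values thus rest mostly on the spread pooled over genes and cannot be set beside those of the main fit. DESeq2 called 73 and 76 genes, all but 1 of them among the edgeR calls in the same direction. Without the nuclei of highest Scrublet scores, 65 and 64 genes were called. Under every alternative run, 46 genes stayed higher and 40 lower. With only 1 matched nucleus for each Reln Egfr nucleus, 61 and 73 genes were called.

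The 15 genes named for the largest rise were *Ndnf*, *Kit*, *Hcrtr2*, *Hapln1*, *Crispld1*, *Gcnt2*, *Mctp2*, *Colec12*, *Pde11a*, *Unc5c*, *Sema5a*, *Arhgap22*, *Arhgap29*, *Myo3a* and *Myo3b*. They were detected in 13.0 to 73.9% of Reln Egfr nuclei of replicate 2 and 14.7 to 94.1% of replicate 3, with medians of 34.8% and 44.1%. The medians in the matched others were 5.80% and 6.86%, and in the oligodendrocyte nuclei 0% and 0%. *Crispld1*, a secreted cysteine-rich protein, rose by 3.64 ± 0.48 (edgeR adjusted p = 0.00164), at 87.0 and 259 CPM against 18.8 and 10.0. *Pde11a*, a phosphodiesterase of cAMP and cGMP, rose by 3.02 ± 0.32 (edgeR adjusted p = 0.000488), at 322 and 880 CPM against 70.0 and 70.2. Both held under every alternative.

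Of these genes, 2 serve axon guidance. *Unc5c*, a netrin receptor, was at 3519 and 3853 CPM against 512 and 522 (2.84 ± 0.20, edgeR adjusted p = 9.52e-05). It was not limited to neurons, since 89.7% and 86.7% of oligodendrocyte nuclei held it. *Sema5a*, a semaphorin, was in 73.9% and 85.3% of nuclei against 26.1% and 18.6% (2.76 ± 0.32, edgeR adjusted p = 0.000702). *Myo3a* and *Myo3b* encode class III myosins and rose by 2.66 ± 0.66 and 2.63 ± 0.38 (edgeR adjusted p = 0.0411 and 0.00276). *Arhgap29* (edgeR adjusted p = 0.0309) and *Myo3a* lost the call without the nuclei of highest Scrublet scores (log2 fold changes 2.72 and 2.67, edgeR adjusted p = 0.110 and 0.127). All 15 were also higher than in others that met the same exclusions.

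Further genes held under every alternative and were named after their values were seen. *Alk*, a receptor tyrosine kinase, rose by 2.15 ± 0.19, in 82.6% and 94.1% of nuclei against 44.9% and 57.8%. *Mgll*, the lipase that breaks down the endocannabinoid 2-AG, rose by 2.15 ± 0.23, in 65.2% and 70.6% against 24.6% and 25.5%. *Fgf13*, an intracellular partner of sodium channels, rose by 2.56 ± 0.25.

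On the lower side, 9 of the 15 named genes were at 0 in every Reln Egfr nucleus: *Kcnh8*, *Adamts9*, *Mdga1*, *Zfp831*, *Npffr2*, *Penk*, *Pkp2*, *Atp10a* and *Slco5a1*. The matched others held them in 10.1 to 24.6% of nuclei in replicate 2 and 12.7 to 22.5% in replicate 3. The bounds were modest. *Kcnh8*, a potassium channel, was at least 3.89-fold lower in replicate 2 and at least 6.11-fold lower in replicate 3, and *Penk*, the enkephalin precursor, at least 1.56-fold and 3.33-fold lower. All 9 lost the call without the nuclei of highest Scrublet scores (edgeR adjusted p = 0.0516 to 0.108), while the fitted log2 fold changes, which depend on the prior count, stayed close, as for *Kcnh8* (-7.91 and -7.83) and *Penk* (-6.88 and -6.85).

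*Meis2*, a homeodomain factor of lateral ganglionic eminence neurons (ENSMUSG00000027210, chr2:115863064-116065839), had the most counts among the named lower genes. It was in 8.70% and 17.6% of the Reln Egfr nuclei and in 60.9% and 69.6% of the matched others, and fell by 5.41 ± 0.38 on the log2 scale (edgeR adjusted p = 9.52e-05). *Unc13c*, a presynaptic priming factor, fell by 4.59 ± 0.40 (edgeR adjusted p = 0.000242), and *Ano3*, an anoctamin, by 4.37 ± 0.33 (edgeR adjusted p = 0.000115). *Cdh6*, a cadherin, had 1 UMI in the set, and the matched others were 40.3-fold higher (counting interval 7.11 to 1606). *Otof*, which encodes otoferlin, had 3 UMIs and a ratio of 31.7 (10.7 to 155), and *Col23a1* had a ratio of 31.5 (8.60 to 262).

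The exclusion of *Foxp2* nuclei bears on these genes. Of the 14 genes of the intercalated, striatal and central amygdala list that the rule did not use, 9 were tested against all matched others, 4 were lower and none higher (median log2 fold change -1.69, or -1.67 with *Penk* at its bound). Of all genes tested 3.64% were called lower. Against others that met the same exclusions, 8 were tested and 4 were lower, with 5.83% of all genes called lower. *Meis2* fell by 3.82 and *Rarb*, a retinoic acid receptor, by 2.77 in that comparison (edgeR adjusted p = 1.60e-15 and 3.20e-07). *Tshz1*, a factor of intercalated cells, fell by 2.34 ± 0.29 (edgeR adjusted p = 0.00122) against all matched others, and its log2 fold change was -0.40 (edgeR adjusted p = 0.715) against those with the same exclusions. Of the 15 named lower genes 7 had enough counts to be tested there, and all 7 were lower.

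**Figure D4:**
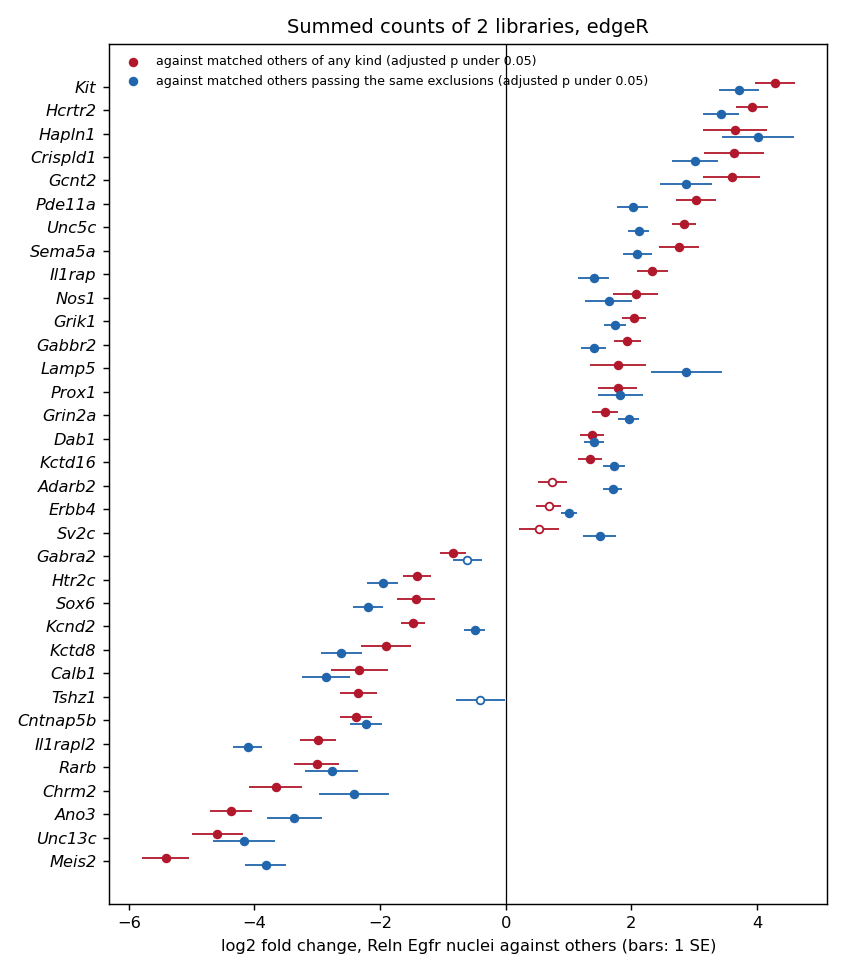
Log2 fold change with 1 SE (horizontal axis) of 34 genes in the Reln Egfr nuclei against depth-matched others of any kind (red) and against those meeting the same exclusions (blue). Filled points passed an edgeR adjusted p of 0.05. *Kit*, *Hcrtr2* and *Grik1* lie to the right in both comparisons, while *Tshz1* at -2.34 against all matched others moved to -0.40.

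Several of the genes described here lost their call when a single matched nucleus was used for each Reln Egfr nucleus. Among the named genes with enough counts to be tested there, these were *Hapln1* (edgeR adjusted p = 0.0658), *Mctp2* (edgeR adjusted p = 0.0989) and *Colec12* (edgeR adjusted p = 0.130), all still positive. Among the listed genes they were *Lamp5* (0.0757), *Nos1* (0.0581) and *Prox1* (0.235) on the higher side, and *Sox6* (0.628), *Htr2c* (0.158) and *Calb1* (0.171) on the lower side, all as edgeR adjusted p. The same held for *Kctd8*, *Kctd16*, *Gabra2*, *Cntnap2*, *Cntnap5c*, *Kcnip4*, *Kcnq3*, *Kcnh7*, *Kcnt2*, *Gria2* and *Grin2d*, at edgeR adjusted p from 0.0506 to 0.227. With no block for the library, the calls of *Gabra2* (0.0741), *Cntnap2* (0.0602), *Cntnap5c* (0.0771), *Kcnh7* (0.0590) and *Gria2* (0.105) were lost as well. DESeq2 did not call *Gabra2*, *Kctd8*, *Cntnap5c*, *Kcnt2* or *Gria2*. It gave no adjusted p to some genes of low counts, *Ndnf*, *Lamp5*, *Hapln1* and *Nos1* among them, so these were not called either.

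Factors of developmental origin gave a mixed picture. *Prox1*, a homeodomain factor of caudal ganglionic eminence cells (ENSMUSG00000010175, chr1:190118035-190170714), rose by 1.78 ± 0.31 (edgeR adjusted p = 0.00715), in 47.8% and 47.1% of nuclei against 10.1% and 9.80%. Oligodendrocyte nuclei held it in 33.3% and 37.3%. *Adarb2*, an RNA-editing relative that marks caudal eminence interneurons, was in 95.7% and 94.1% against 78.3% and 83.3% (0.74 ± 0.23, edgeR adjusted p = 0.101). Against others that met the same exclusions it rose by 1.71 ± 0.15 (edgeR adjusted p = 6.39e-15). *Foxp2* nuclei held *Adarb2* in 97.8% and 94.7% of cases. In the list of caudal eminence genes, 1 of 4 tested genes was higher (median 0.56, with 2.82% of all genes called higher). In that of medial eminence genes, 1 of 4 was lower (median -0.02, with 3.64% of all genes called lower), namely *Sox6*, which fell by 1.43 ± 0.30 (edgeR adjusted p = 0.0188) and lost the call at -1.38 without the nuclei of highest Scrublet scores (edgeR adjusted p = 0.165). *Dlx6os1*, an antisense RNA of the Dlx5 and Dlx6 genes of GABAergic neurons, rose by 1.34 ± 0.21 (edgeR adjusted p = 0.00431) and was the only 1 of its 6 genes that was tested.

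Genes of GABA-B receptors were called in both directions. *Gabbr2*, the GABA-B receptor subunit that couples to G proteins, rose by 1.94 ± 0.22 (edgeR adjusted p = 0.000684), in 91.3% and 91.2% against 68.1% and 68.6%. *Kctd16*, an auxiliary subunit of GABA-B receptors, rose by 1.34 ± 0.19 (edgeR adjusted p = 0.00223), while *Kctd8*, another, fell by 1.91 ± 0.40 (edgeR adjusted p = 0.0196). The 6 tested GABA-B genes thus held 2 higher and 1 lower, with a median of -0.40, where 2.82% and 3.64% of all genes were called. *Gabbr1*, the ligand-binding subunit, had a log2 fold change of -0.13 ± 0.27 (edgeR adjusted p = 0.891).

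Of 10 tested GABA-A subunits, *Gabrb2* was higher (1.05 ± 0.25, edgeR adjusted p = 0.0368) and *Gabra2* lower (-0.84 ± 0.21, edgeR adjusted p = 0.0390), with a median of -0.07. Of all genes tested, 2.82% were called higher and 3.64% lower. *Gabrd*, the delta subunit tied to slow neurogliaform inhibition, had too few counts to be tested. Without the nuclei of highest Scrublet scores, the calls of *Gabrb2* (1.07, edgeR adjusted p = 0.141), *Gabra2* (-0.85, edgeR adjusted p = 0.0980) and *Kctd8* (-2.07, edgeR adjusted p = 0.0721) were lost at about the same log2 fold changes.

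In the reelin pathway, *Dab1*, the adaptor that reelin receptors act through, was the only 1 of 9 tested genes to pass. It was in every Reln Egfr nucleus and rose by 1.37 ± 0.19 (edgeR adjusted p = 0.00198). The receptors *Vldlr* and *Lrp8* had log2 fold changes of -0.27 ± 0.43 and -0.08 ± 0.28, and the median of the list was -0.08. In the ErbB list, none of 4 tested genes passed (median 0.44). Beside both lists, 6.46% of all genes tested were called in either direction. *Erbb4*, the neuregulin receptor of many interneurons, was in all Reln Egfr nuclei with a log2 fold change of 0.68 ± 0.20 (edgeR adjusted p = 0.0854), and it rose by 1.0 ± 0.13 (edgeR adjusted p = 7.66e-09) against others that met the same exclusions. The genes of the ligands of Egfr itself had too few counts to be tested.

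Glutamate receptor genes were higher in 3 of 16 cases and lower in 1 (median -0.19), against 2.82% and 3.64% of all genes. *Grik1*, the GluK1 kainate receptor subunit (ENSMUSG00000022935, chr16:87895900-88290265), was in 95.7% and 100% of nuclei against 52.2% and 44.1%. Its level was 2225 and 2210 CPM against 517 and 565, a log2 fold change of 2.04 ± 0.19 (edgeR adjusted p = 0.000295). The NMDA receptor subunits *Grin2a* (1.58 ± 0.20, edgeR adjusted p = 0.00149) and *Grin2d* (1.85 ± 0.39, edgeR adjusted p = 0.0194) rose, and the AMPA receptor subunit *Gria2* fell by 0.81 ± 0.20 (edgeR adjusted p = 0.0386). The calls of *Grin2d* and *Gria2* were lost without the nuclei of highest Scrublet scores (log2 fold changes 1.86 and -0.82, edgeR adjusted p = 0.0860 and 0.110).

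Of 21 tested potassium channel genes, 2 were higher and 3 lower, with a median of -0.06 and 2.82% and 3.64% of all genes called. *Kcnh7* and *Kcnt2* rose by 1.02 ± 0.19 and 0.99 ± 0.22 (edgeR adjusted p = 0.00904 and 0.0229). *Kcnd2*, a channel of the A-type current, its partner *Kcnip4*, and *Kcnq3*, a channel of the M current, fell by 1.48 ± 0.19, 1.46 ± 0.22 and 1.14 ± 0.22 (edgeR adjusted p = 0.00132, 0.00297 and 0.0115). Of these, only *Kcnd2* passed without the nuclei of highest Scrublet scores, where *Kcnip4* and *Kcnq3* were at -1.51 and -1.15 and *Kcnh7* and *Kcnt2* at 1.01 and 1.0.

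Among receptors for modulators, 2 of 9 tested genes were lower and none higher (median 0.45), with 3.64% of all genes called lower and 2.82% higher. *Htr2c*, a serotonin receptor, was in 26.1% and 17.6% against 46.4% and 37.3% (fell by 1.42 ± 0.23, edgeR adjusted p = 0.00440). *Chrm2*, a muscarinic receptor, was in 8.70% and 5.88% against 26.1% and 26.5% (fell by 3.66 ± 0.42, edgeR adjusted p = 0.000702). *Calb1*, the calcium-binding protein calbindin, fell by 2.33 ± 0.45 (edgeR adjusted p = 0.0126), with a loss of the call at -2.42 without the nuclei of highest Scrublet scores (edgeR adjusted p = 0.0931). Of the 11 neuropeptide genes that the rule did not use, only *Npy* and *Penk* were tested. None of the 4 genes of neuronal gap junctions had enough counts.

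Synapse organisers split within families. In the neurexin list of 11 tested genes, *Cntnap2* and *Cntnap5c* rose by 1.18 ± 0.19 and 0.83 ± 0.19 (edgeR adjusted p = 0.00467 and 0.0309) and *Cntnap5b* fell by 2.39 ± 0.25 (edgeR adjusted p = 0.000488), with a median of -0.34. The calls of *Cntnap2* (1.13, edgeR adjusted p = 0.0550) and *Cntnap5c* (0.84, edgeR adjusted p = 0.0993) were lost without the nuclei of highest Scrublet scores. In the interleukin-1 receptor list of 6 tested genes, *Il1rap* was higher and *Il1rapl2* lower (-2.99 ± 0.28, edgeR adjusted p = 0.000304), with a median of 0.02. Beside both lists, 2.82% of all genes were called higher and 3.64% lower. *Il1rapl1* was at 0.14 ± 0.19.

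Markers of other cells were mostly low. The 5 astrocyte markers that the rule did not use summed to 0 UMIs in replicate 2 and 9 in replicate 3, with *Aqp4*, *Aldh1l1* and *Gfap* at 0. *Pdgfra*, which defines oligodendrocyte precursors, was at 0 in both, and the 6 genes of that list summed to 619 and 335 CPM against 677 and 809 in the matched others. The 5 oligodendrocyte genes summed to 118 and 37.6 CPM, against 93.8 and 110 in the matched others and 15394 and 14004 in oligodendrocyte nuclei. The 5 vascular genes summed to 30.7 and 15 CPM against 23.9 and 22.5. Of the 6 glutamatergic genes, *Neurod2*, *Neurod6* and *Tbr1* were at 0, and the sum, mostly *Camk2a*, was 537 and 323 CPM against 589 and 363. No astrocyte or vascular gene had enough counts to be tested. Only 2 precursor, 2 oligodendrocyte and 1 glutamatergic genes were tested, and none of them passed against all matched others. Against those with the same exclusions, 3 oligodendrocyte genes were lower, among them *Mbp*, which encodes myelin basic protein and fell by 3.09 (edgeR adjusted p = 1.07e-08), and 1 of the precursor list, *Lhfpl3* (fell by 1.37, edgeR adjusted p = 5.41e-07).

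Microglial genes were the exception. The 7 genes summed to 184 CPM in replicate 2, against 27.3 in the matched others, and to 33.8 against 35.1 in replicate 3, with *Tmem119* at 0 in both. In replicate 2, 3 nuclei held 2 or more of *Cx3cr1*, *P2ry12*, *Csf1r*, *C1qa* and *C1qb*. Leaving them out, a choice made after seeing the data, gave 20 nuclei and a share of 3.31% (2.03 to 5.06), with 222 genes higher and 288 lower. Of the 155 and 200 calls above, 151 and 192 were among them, with a log2 fold change of 4.27 for *Kit* and 3.92 for *Hcrtr2*.

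The set was then compared with *Cnr1*-rich and with *Sst* nuclei in a single fit over sums of all classes within the depth range of the Reln Egfr nuclei (19 and 30 nuclei). *Cnr1*, the cannabinoid receptor, marks cholecystokinin basket cells in many forebrain areas, and *Sst* encodes somatostatin. Both classes were GABAergic nuclei with under 3 *Foxp2* UMIs and no *Vip*, the first with 4 or more *Cnr1* UMIs and no *Sst*, the second with *Sst*, and both were taken whatever their *Reln* and *Egfr*. In *Cnr1*-rich nuclei *Reln* was in 100% and 81.8% and *Egfr* in 10% and 4.55%. The *Cnr1*-rich class held only 7 and 19 nuclei in this fit. Against it 181 genes were higher and 211 lower, 3.86% and 4.5% of 4688 tested and 8.36% in either direction. Against *Sst* nuclei 218 were higher and 232 lower, 4.65% and 4.95%, or 9.6% in either direction.

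*Hcrtr2* was higher in the set than in both classes, by 3.19 ± 0.47 against *Cnr1*-rich and 4.23 ± 0.40 against *Sst* nuclei (edgeR adjusted p = 0.000135 and 1.09e-06). *Sema5a* was higher by 3.10 ± 0.49 and 2.89 ± 0.36 (edgeR adjusted p = 0.000256 and 2.00e-05). *Kit* was higher by 2.66 ± 0.60 and 4.35 ± 0.56 (edgeR adjusted p = 0.00649 and 2.11e-05), though it was in 60.0% and 27.3% of all *Cnr1*-rich nuclei, which were deeper (medians 13941 and 11071 UMIs). *Vip* nuclei, for which no test is reported, held *Hcrtr2* in 44.4% and 53.1% and *Sema5a* in 72.2% and 53.1%, so neither gene was particular to the set. Of the 15 named higher genes 13 were tested in this fit. Of these 12 were higher than in *Cnr1*-rich nuclei, the exception being *Myo3b* (2.18, edgeR adjusted p = 0.0748), and 13 were higher than in *Sst* nuclei. The named lower genes mostly did not pass here. Of the 13 of them tested, 4 were lower than in *Cnr1*-rich nuclei and 2 lower than in *Sst* nuclei, and 0 were higher.

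Neurogliaform markers were uneven in *Cnr1*-rich nuclei. Besides *Kit*, *Tnfaip8l3* was in 50% and 36.4% of all of them, against 30.4% and 32.4% of the Reln Egfr nuclei, and *Plch2* in 40.0% and 27.3%, against 21.7% and 8.82%. *Il1rap* was in 30.0% and 18.2%, and *Lamp5* in 20% and 0%. In the nuclei of the fit, *Ndnf* was at 0 there and at least 1.80-fold and 12.2-fold higher in the set. *Hapln1* had 1 UMI (ratio 23.2, counting interval 3.87 to 944), *Lamp5* had 1 (16.7, 2.70 to 686) and *Nos1* had 1 (29.0, 4.91 to 1172). In the list, 7 of 9 tested genes were higher (median 3.05, or 2.66 with *Ndnf* at its bound), and the same number were higher against *Sst* nuclei (median 2.70). Of all genes tested, 3.86% and 4.65% were called higher. Both counts include *Ndnf*, *Lamp5* and *Il1rap*, by which the set had been described. *Nos1* did not separate the set from *Sst* nuclei, which held it in 25.0% and 24.4% (-0.55 ± 0.44, edgeR adjusted p = 0.566). *Npy* was in 25.0% and 28.2% of *Sst* nuclei (-1.71 ± 0.59, edgeR adjusted p = 0.0806).

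Several genes lay between these classes in level. *Adarb2* was lower than in *Cnr1*-rich nuclei (-2.05 ± 0.33, edgeR adjusted p = 0.000262) and higher than in *Sst* nuclei (2.80 ± 0.35, edgeR adjusted p = 1.68e-05). *Npas3* showed the same order (-2.03 ± 0.21 and 1.06 ± 0.21, edgeR adjusted p = 2.63e-06 and 0.00176), as did *Kcnq5* and the nicotinic receptor gene *Chrna7*. *Prox1* was higher than in *Sst* nuclei (3.13 ± 0.40, edgeR adjusted p = 2.04e-05) and not separated from *Cnr1*-rich nuclei (0.88 ± 0.38, edgeR adjusted p = 0.221). Conversely, *Sox6* was lower than in *Sst* nuclei (-3.12 ± 0.34, edgeR adjusted p = 4.17e-06), where 80.0% and 93.6% of nuclei held it. It was higher than in *Cnr1*-rich nuclei, which had 3 UMIs (ratio 15.9, counting interval 5.22 to 79.2), though most *Sox6* UMIs of the set, 48 of 54 and 27 of 31, lay in the 5 *Sox6*-rich nuclei. *Nxph1*, a ligand of neurexins, was higher than in *Cnr1*-rich nuclei (3.49 ± 0.66, edgeR adjusted p = 0.00136) and at -0.48 ± 0.48 against *Sst* nuclei (edgeR adjusted p = 0.667).

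Other genes were lower than in both classes. *Calb1* was lower, at -2.90 ± 0.55 and -2.99 ± 0.48 (edgeR adjusted p = 0.00158 and 0.000266), and *Chrm2* by -3.65 ± 0.75 and -4.55 ± 0.58 (edgeR adjusted p = 0.00273 and 2.04e-05). *Htr2c* was at -3.07 ± 0.37 and -2.13 ± 0.37 (edgeR adjusted p = 2.15e-05 and 0.000433) and *Nrxn3*, a presynaptic neurexin, at -2.10 ± 0.15 and -0.93 ± 0.15 (edgeR adjusted p = 5.22e-08 and 0.000237). *Gabbr2* was higher than in both (1.73 ± 0.23 and 1.36 ± 0.20, edgeR adjusted p = 4.95e-05 and 8.37e-05), and *Erbb4* likewise (1.11 ± 0.19 and 2.08 ± 0.19, edgeR adjusted p = 0.000441 and 6.98e-07). *Grik1*, by contrast, was separated from neither (0.55 ± 0.23 and -0.00 ± 0.22, edgeR adjusted p = 0.196 and 1).

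**Figure D5:**
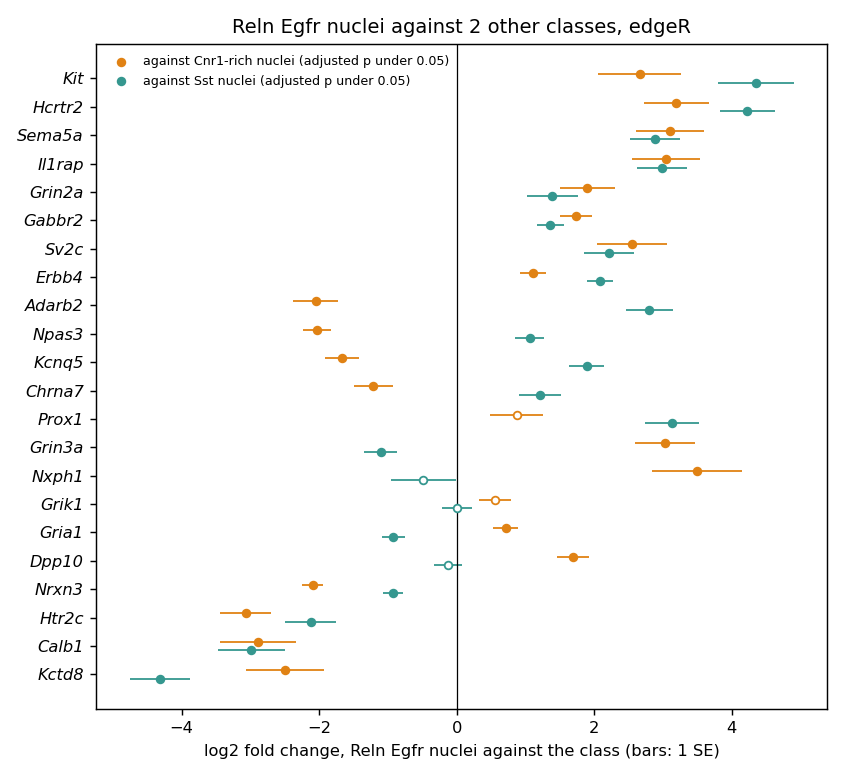
Log2 fold change with 1 SE (horizontal axis) of 22 genes in the Reln Egfr nuclei against *Cnr1*-rich (orange) and *Sst* nuclei (teal), from sums in replicates 2 and 3. Filled points passed an edgeR adjusted p of 0.05. *Hcrtr2* lies at 3.19 and 4.23, while *Adarb2* lies at -2.05 against *Cnr1*-rich and 2.80 against *Sst* nuclei.

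At equal depth the order of the shares held for most genes. After each nucleus was thinned to 2700 UMIs, leaving out 2 and 3 shallower Reln Egfr nuclei, *Ndnf* was in 23.8% and 22.6% against 0% and 0% of the matched others. *Kit* was in 28.6% and 58.1% against 0% and 3.23%, and *Hcrtr2* in 28.6% and 54.8% against 1.59% and 9.68%. *Npy*, at 4.76% and 6.45% against 3.17% and 2.15%, rested on 1 and 2 nuclei of the set. Of the 15 named higher genes 14 stayed higher in both libraries, and of the 15 named lower genes 14 stayed lower.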

How the data were processed

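snRNAseq of the BLA at postnatal day 56 was analysed in replicates 2 and 3, with replicate 1 given on its own. The authors aligned reads with Cell Ranger 7.0.1 to mm10, per the submitters' processing notes, and deposited raw UMI counts of 32285 genes for each barcode taken as a cell, without normalization. Barcode totals and medians per library, from 1013 UMIs in the shallowest Reln Egfr nucleus upwards, set the precision. Gene positions are from GENCODE vM21 (GRCm38). The nuclei, markers and gene lists were chosen with earlier results of these data known.

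Counts were summed per class and library and tested with edgeR 4.0.16 in R 4.3.3 (quasi-likelihood, TMM, filterByExpr, Benjamini-Hochberg adjustment, threshold 0.05), with the library as a block, since both sums of a library come from the same preparation. Genes of the rule and mitochondrial genes were left out. Classes were compared within the 5th to 95th percentile of depth of the Reln Egfr nuclei. Genes were named as the 15 largest log2 fold changes in each direction among calls of the same sign in both libraries, with a UMI in at least 10% of the higher group (12 higher and 19 lower clone-type names are not given), plus the listed genes. Intervals are exact Clopper-Pearson at 95%, a count of 0 allows 3 counts, and oligodendrocyte nuclei had at least 1% of UMIs in a set of myelin genes with *Mbp*, *Mog* and *Mobp* among them. Alternatives were other matchings, thresholds, doublet removal (Scrublet in scanpy 1.11.5, by rank of its score), thinning, DESeq2 1.42.0, filters and scaling. The one without nuclei holding microglial genes was added after seeing the data. Some genes are not reported here.

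On simulated counts of 5151 genes for the comparison with matched others, 50% of genes raised 4-fold and 25% of those lowered to 0.25 were called, 8% of those raised 2-fold, 4.35% of those lowered to 0.5, and 0.0202% of unchanged genes. The simulation gave all genes a single spread that was set rather than estimated from the data, and no difference between libraries. These shares therefore describe the simulated counts and need not hold for the real ones.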

Additional observations from a re-analysis of the deposited data

How the results depend on the processing

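The share of Reln Egfr nuclei, 3.53% as the mean of 2 libraries, was 2.16% when 2 UMIs of each gene were asked for and 2.98% when counts were thinned before the rule was applied. It was the same to within its SD under other limits on mitochondrial and hemoglobin UMIs and without doublets, and 3.27% to 3.8% in the single libraries. Against matched others, the 155 genes called higher became 61 with 1 matched nucleus each, 253 against all other GABAergic nuclei, 65 without the highest Scrublet scores and 73 with DESeq2. The 200 called lower became 73, 442, 64 and 76 under the same settings, 317 against others with the same exclusions, 316 with 2 UMIs of each gene asked for and 352 with no filter on low counts. The cause was not tested, but the prior degrees of freedom of these fits ran from 4.43 to 70.8 or were infinite. Against *Cnr1*-rich nuclei, 181 genes higher became 274 with nuclei of any depth. With no block for the library (the pairing of sums from 1 preparation), 142 and 203 genes were called against matched others, 116 and 159 against *Cnr1*-rich nuclei and 163 and 154 (against 232 lower with the block) against *Sst* nuclei. No call reversed in the alternatives run. Of the 30 named genes, 12 lost the call without the highest Scrublet scores, 5 without TMM and 3 with 1 matched nucleus each. Genes that a setting left untested or without an adjusted p are not among these losses. DESeq2 kept the call of 10 of the 30. Only 6 of the 15 named higher genes and 4 of the 15 named lower genes were called under every alternative. A single library leaves no residual degrees of freedom and so no test. Calls made on these same 2 libraries favour genes with the same direction in both, so the direction in each library is no separate check. The called genes kept their direction in each library, all 155 and 200 against matched others, 180 to 181 and 210 to 211 against *Cnr1*-rich and all 218 and 232 against *Sst* nuclei. Their size could differ between libraries. The log2 ratio of levels, with a small constant added to each, was 1.75 and 3.75 for *Crispld1* in replicates 2 and 3, and 3.60 and 3.62 for *Kit*. With 23 and 34 nuclei, a gene at 0 in the set could still be in up to 13.0% and 8.82% of such nuclei.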

Other observations

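The GABAergic nuclei that held *Egfr* without *Reln*, and passed the other limits of the Reln Egfr set, also held several of its markers. *Kit* was in 17.1% and 34.1% of these 35 and 41 nuclei, *Hcrtr2* in 22.9% and 43.9%, *Il1rap* in 40.0% and 48.8% and *Ndnf* in 2.86% and 7.32%. In the 40 and 55 nuclei with *Reln* without *Egfr*, *Kit* was in 20% and 9.09%, *Hcrtr2* in 7.50% and 7.27% and *Ndnf* in 2.50% and 5.45%. *Sox6* was in 48.6% and 43.9% of the nuclei with *Egfr* alone and in 17.5% and 32.7% of those with *Reln* alone. *Htr2c* was in 42.9% and 65.9% and in 72.5% and 67.3%, against 26.1% and 17.6% of the Reln Egfr nuclei. Median depths were 4524 and 5605 UMIs with *Egfr* alone and 5561 and 6821 UMIs with *Reln* alone, against 8051 and 6279 in the Reln Egfr nuclei. Whether depth had a part in these shares was not tested.

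*Vip* nuclei (18 and 32) shared part of the profile. *Egfr* was in 83.3% and 65.6% and *Reln* in 27.8% and 28.1% of these nuclei, which the rule left out for their *Vip*. *Hcrtr2* was in 44.4% and 53.1% of them, *Il1rap* in 61.1% and 62.5%, *Prox1* in 77.8% and 68.8% and *Sema5a* in 72.2% and 53.1%. *Ndnf* and *Lamp5* were in none of them, which allows shares of up to 16.7% and 9.38%, and *Hapln1* was in 0% and 3.12%. No test of these classes against the Reln Egfr nuclei is reported here.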
